A study of Mus musculus with 8 samples.

Results

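The genes described are 10 genes of the cytotoxic granule, namely the granzymes Gzma, Gzmb, Gzmc, Gzmd, Gzme, Gzmf, Gzmg and Gzmk, the pore former Prf1 and the granule membrane protein Nkg7. They were chosen by name from a table of 52784 genes, and all 10 were found in it once. Their levels were read in 8 RNA-seq libraries of cells sorted from pups aged 1 week, with 1 library for each combination of cell origin and treatment. The pups were F1 offspring of C57BL/6 (CD11c-DTR) dams and BALB/c males. Trafficked maternal cells are meant to be cells of the dam found in the pup, and recipient cells the pup's own.

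In the DC control mIUT group, dams were given saline on E13 and each fetus received 5000000 bone marrow mononuclear cells of B6 donors, which match the dam, by in-utero transplantation (IUT) on E14. The DC control pIUT group differed in the donor, which was BALB/c and so matched the sire. In the DC-depleted pIUT group the BALB/c cells were given after diphtheria toxin (DT, 5 ng/g) to the dam. Uninjected pups had no IUT and came from dams with or without DT, and how they were divided is not given in the sources used here. All dams carried the CD11c-DTR transgene. The CD11c promoter drives the toxin receptor, and CD11c is carried by dendritic cells but also by part of the NK cells and by activated CD8 T cells. Cells of the animals of a group were pooled into 1 library, so every ratio below compares 2 libraries and not 2 conditions. The study's methods name H2K-b antibodies for the sort of maternal cells and H2K-d antibodies for recipient cells. F1 cells carry both antigens, B6 donor cells carry H2K-b, and BALB/c donor cells carry H2K-d. By these antigens alone, B6 donor cells could enter the maternal DC control mIUT library, and BALB/c donor cells the recipient pIUT libraries. Their share in the libraries was not tested.

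Natural killer (NK) cells and cytotoxic T lymphocytes kill a target by releasing granules into the contact with it. Perforin, the product of Prf1, forms pores, and granzymes are serine proteases that enter the target through its action and cleave proteins there. Granzymes are stored with the proteoglycan serglycin and are activated by cathepsin C, and some are also made by mast cells and other myeloid cells.

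The 8 libraries held 38543457 to 47965130 counts each and between 9125 and 16231 genes with at least 10 counts. The recipient uninjected library stood apart. Of 3776 genes with at least 10 counts per 1000000 (CPM) in each of the other 7 libraries, 9.51% were under 1 CPM in it. In the maternal DC control mIUT library this share was 4.86%, and in the other 6 it was 1.26% or less. The labels call the cells mononuclear, but the summed level of 8 neutrophil granule markers ran from 1522 CPM in maternal DC control pIUT to 262839 CPM in recipient DC control mIUT. The library size behind CPM was scaled by TMM (trimmed mean of M values). A gene was called not detectable at 3 counts or fewer, which is 0.0547 to 0.105 CPM. The bracketed 95% intervals are exact and cover counting error only, since reads without molecular identifiers are not independent molecules.

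Of the 8 granzyme genes, 6 lie side by side on mouse chromosome 14. Gzme, Gzmd, Gzmg, Gzmn, Gzmf, Gzmc and Gzmb follow one another on the minus strand at chr14:56355083-56499717 (GRCm39), a span of 144635 bases in which Gzmn is the only granzyme gene outside the 10. Gzma (chr13:113230355-113237524) and Gzmk (chr13:113308142-113362442) form a pair on chromosome 13, Prf1 is at chr10:61133546-61140461 and Nkg7 at chr7:43086497-43087678. Gzmb (ENSMUSG00000015437) encodes the protease that cleaves after aspartate and triggers caspases. Gzma (ENSMUSG00000023132) and Gzmk (ENSMUSG00000042385) encode trypsin-like proteases. Gzmc to Gzmg are a group found in rodents, and Gzmd to Gzmg are known from the granulated NK cells of the pregnant mouse uterus.

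The resemblance of these genes decides how far reads can be assigned to one of them. The coding sequences of Gzmd and Gzme were identical at 93.3% of aligned positions, with 39 mismatches. Gzmd matched Gzmg at 86.6%, Gzmf at 83.4% and Gzmc at 71.2%, and Gzmb matched Gzmc at 75.7%. An 80-base stretch of exon 2, coding positions 56 to 135, shows this resemblance where the genes begin to part. It is printed below from the GRCm39 genome with GENCODE gene models, on the coding (minus) strand, and capitals mark the bases that differ from Gzmd.
Gzmd (chr14:56368758-56368837): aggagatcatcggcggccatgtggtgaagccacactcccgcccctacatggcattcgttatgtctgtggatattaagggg
Gzme (chr14:56356826-56356905): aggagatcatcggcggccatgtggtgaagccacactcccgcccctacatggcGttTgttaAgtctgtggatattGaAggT
Gzmg (chr14:56395823-56395902): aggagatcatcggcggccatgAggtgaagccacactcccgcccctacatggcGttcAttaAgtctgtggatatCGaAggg
Gzmf (chr14:56444437-56444516): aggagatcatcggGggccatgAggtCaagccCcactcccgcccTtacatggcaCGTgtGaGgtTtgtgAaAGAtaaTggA
Gzmc (chr14:56471405-56471484): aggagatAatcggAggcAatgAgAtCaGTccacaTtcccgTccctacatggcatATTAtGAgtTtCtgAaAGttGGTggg
Gzmb (chr14:56498612-56498691): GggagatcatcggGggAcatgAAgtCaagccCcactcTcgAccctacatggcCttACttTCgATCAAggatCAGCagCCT
In this stretch Gzme differed from Gzmd at 6 bases, Gzmg at 7, Gzmf at 17, Gzmc at 24 and Gzmb at 26. Over whole transcripts, 39.4% of the 31-base windows of Gzmd, 44.4% of those of Gzme, 35.8% of those of Gzmf and 33.8% of those of Gzmg also occurred in another gene. The share was 11.6% for Gzmc, 1.35% for Gzmb and 0.241% for Gzma. At 100 bases, which is shorter than the reads, it was 0.231% for Gzmd and 0.247% for Gzmg, and 0 for Gzma, Gzmb, Gzmc, Gzme, Prf1 and Nkg7. Gzmf kept 6.83% and Gzmk 3.67%, which they share with the non-coding genes Gm4022 and Gm59720 on the opposite strand.

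The deposited values show where reads were divided. Maternal uninjected cells gave Gzmb 7050.664 and Gzmc 1897.336 estimated counts, neither of them whole, and their sum was 8948. In the same library Gzmd (5226.029), Gzme (1155.666), Gzmf (5107.503), Gzmg (3942.783) and Gzmn (8.019) were each fractional and summed to 15440. In recipient DC control pIUT, Gzmb (7467.794) and Gzmc (1016.206) summed to 8484. The sums were whole within 0.0025. Gzmd in recipient uninjected cells was a whole number, 840, with Gzme, Gzmf and Gzmg at 0.

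**Figure D1:**
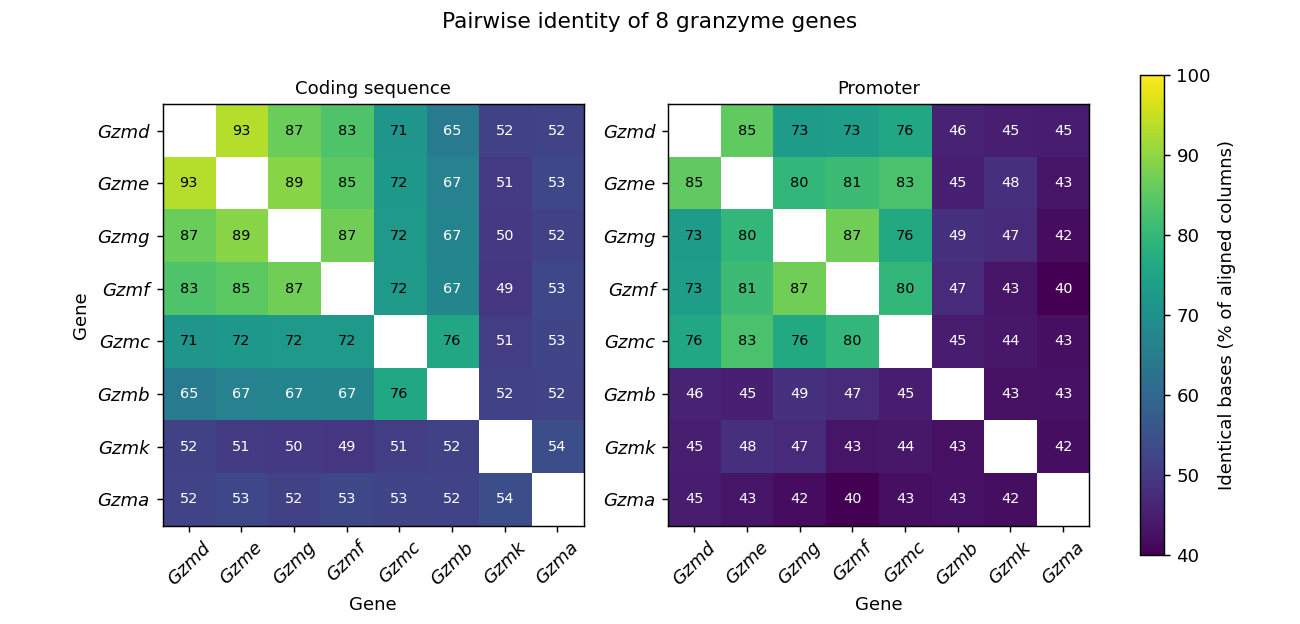
Share of identical bases (% of aligned columns) between each pair of 8 granzyme genes, for the coding sequence (left) and for the promoter (right, 250 bases before to 50 after the start). In coding sequence Gzmc is nearest to Gzmb (76), a little above Gzmd, Gzme, Gzmf and Gzmg (71 to 72). Its promoter is close to those of Gzmd, Gzme, Gzmf and Gzmg (76 to 83) and not to that of Gzmb (45).

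The promoters grouped the genes in another way. The window from 250 bases before to 50 after the start of Gzmc was identical to that of Gzme at 82.7% of positions and to that of Gzmb at 44.9%, whereas in coding sequence Gzmc was nearer to Gzmb. The 250 bases before the start of Gzmb, Gzmc and Gzmd are printed below because Gzmb was detected in all 8 libraries, Gzmc in 3 and Gzmd in 2. They are on the minus strand of GRCm39, 5′ to 3′, from the same genome and gene models, and capitals mark matches to TGTGGTT (the core that RUNX factors bind), TTCNNNGAA (STAT) or TGANTCA (AP-1) on either strand.
Gzmb (chr14:56499718-56499967): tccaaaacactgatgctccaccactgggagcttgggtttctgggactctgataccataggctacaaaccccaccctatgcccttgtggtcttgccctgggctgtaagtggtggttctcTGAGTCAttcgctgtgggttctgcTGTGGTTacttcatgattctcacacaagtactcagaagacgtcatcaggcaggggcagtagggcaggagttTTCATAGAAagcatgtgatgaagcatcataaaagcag
Gzmc (chr14:56472114-56472363): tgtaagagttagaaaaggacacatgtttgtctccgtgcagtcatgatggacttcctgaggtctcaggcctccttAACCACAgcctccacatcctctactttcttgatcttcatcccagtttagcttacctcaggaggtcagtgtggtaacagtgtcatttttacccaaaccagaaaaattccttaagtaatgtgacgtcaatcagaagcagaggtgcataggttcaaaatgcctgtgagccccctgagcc
Gzmd (chr14:56370066-56370315): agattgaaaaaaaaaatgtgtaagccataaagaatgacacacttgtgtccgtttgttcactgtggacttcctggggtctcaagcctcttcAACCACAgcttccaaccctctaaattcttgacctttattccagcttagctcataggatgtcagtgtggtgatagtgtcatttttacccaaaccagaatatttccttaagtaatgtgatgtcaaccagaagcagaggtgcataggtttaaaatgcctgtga
TGTGGTT or its reverse complement was in the promoter windows of 7 of the 10 genes (Gzma, Gzmb, Gzmc, Gzmd, Gzme, Gzmf and Gzmg), and in 5.03% of 21751 promoters of the same length. The windows of Gzmc to Gzmg are related sequences, so their matches are not separate observations. TTCNNNGAA was in those of Gzmb and Nkg7 (8.81% of all promoters) and TGANTCA in that of Gzmb (7.14%). TATAAA was in that of Gzmk (13.2%), and AGGTGTGA, a T-box motif, was in none of the 10 (1.13%). A match of letters is a description and not a binding site.

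Gzma, Gzmb and Nkg7 were detected in every library, and the other 7 genes came and went. Maternal cells of uninjected pups had all 10 genes above 3 counts, those of DC control mIUT had 5, and those of either pIUT group had 3. In recipient cells the numbers were 5 in uninjected pups, 4 with DC control mIUT, 6 with DC control pIUT and 6 with DC-depleted pIUT. In maternal cells the summed level of the 10 genes was 1855 CPM in uninjected pups, 979 with DC control mIUT, 297 with DC control pIUT and 104 with DC-depleted pIUT. In recipient cells the same sum was 172 CPM in uninjected pups, 66.3 with DC control mIUT, 898 with DC control pIUT and 1114 with DC-depleted pIUT. The order of the treatments thus differed between the origins, with uninjected pups highest in maternal cells and DC-depleted pIUT highest in recipient cells. In pooled cells, fewer cytotoxic cells and less RNA per cell cannot be told apart.

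**Figure D2:**
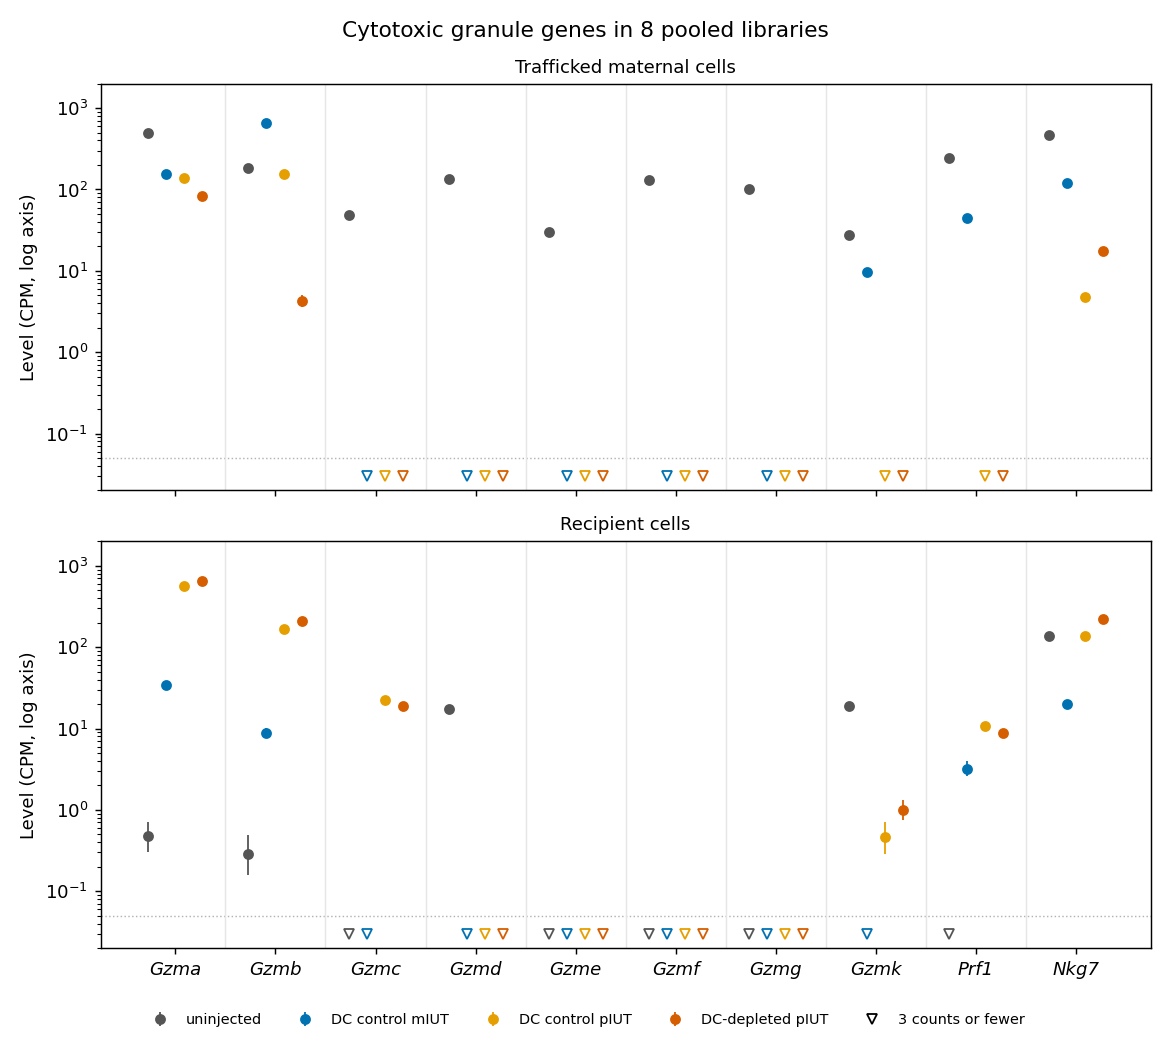
Level of each gene (CPM, log axis) in the 4 libraries of trafficked maternal cells (top) and the 4 of recipient cells (bottom). Points are single pooled libraries with exact 95% counting intervals, and open triangles under the dotted line stand for 3 counts or fewer. Gzme, Gzmf and Gzmg have a point in maternal uninjected cells only.

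Gzma was the leading granzyme in most libraries. Its level in maternal cells was 489 CPM in uninjected pups, 156 with DC control mIUT, 138 with DC control pIUT and 82.9 with DC-depleted pIUT. Recipient cells gave 0.476 CPM in uninjected pups (23 counts), 34.2 with DC control mIUT, 564 with DC control pIUT and 649 with DC-depleted pIUT. The maternal libraries lay within a 5.89-fold range, while the recipient ones spanned 1364-fold [909 to 2152]. The recipient span rests on 23 counts in the uninjected library, in which 9.51% of commonly expressed genes were under 1 CPM. Its part in the span was not tested. Without that library the recipient levels ran from 34.2 to 649 CPM. At its highest, in recipient DC-depleted pIUT, Gzma ranked 117 among 19964 genes with a count.

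Gzmb had its highest level in another library. In maternal cells it stood at 181 CPM in uninjected pups, 648 with DC control mIUT, 154 with DC control pIUT and 4.24 with DC-depleted pIUT. In recipient cells it stood at 0.289 CPM in uninjected pups (14 counts), 8.89 with DC control mIUT, 165 with DC control pIUT and 212 with DC-depleted pIUT. Maternal DC control mIUT was thus the highest of the 8 and maternal DC-depleted pIUT the lowest of the 4 maternal libraries. Both DC control pIUT libraries were near each other, at 154 and 165 CPM.

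The ratio of Gzma to Gzmb counts differed between libraries. In maternal cells it was 2.70 [2.62 to 2.77] in uninjected pups, 0.241 [0.234 to 0.248] with DC control mIUT, 0.901 [0.872 to 0.931] with DC control pIUT and 19.6 [16.5 to 23.4] with DC-depleted pIUT. In recipient cells it was 1.64 [0.810 to 3.45] in uninjected pups, 3.85 [3.35 to 4.44] with DC control mIUT, 3.41 [3.32 to 3.50] with DC control pIUT and 3.05 [2.99 to 3.12] with DC-depleted pIUT. The 3 recipient IUT libraries thus lay closer together than the 4 maternal ones. No 2 of the 4 maternal intervals overlapped. The recipient DC-depleted pIUT interval also lay apart from those of both other recipient IUT libraries. All of these intervals cover counting error only.

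Gzmc, Gzmd, Gzme, Gzmf and Gzmg were highest in maternal cells of uninjected pups, where they held 39.0% of the granzyme counts between them. In that library Gzmd stood at 134 CPM, Gzmf at 131, Gzmg at 101, Gzmc at 48.7 and Gzme at 29.7. All 5 had 0 counts in each of the 3 maternal IUT libraries. In recipient cells Gzme, Gzmf and Gzmg had 0 counts in every library. Gzmd had 840 counts (17.4 CPM) in uninjected pups and 0 in the 3 IUT libraries. Gzmc had the opposite arrangement, with 0 counts in uninjected pups and in DC control mIUT, 1016 counts (22.5 CPM) with DC control pIUT and 1045 (19.1 CPM) with DC-depleted pIUT. Gzmn, their neighbour, had 8 counts in maternal uninjected cells and 0 elsewhere. Of 7 markers of decidua and placenta, all were at 0 in both uninjected libraries.

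Gzmk, the partner of Gzma on chromosome 13, stood at 27.3 CPM in maternal cells of uninjected pups and 9.71 with DC control mIUT, and had 0 counts in both maternal pIUT libraries. Recipient cells had 18.7 CPM in uninjected pups, 0 with DC control mIUT, 0.465 with DC control pIUT (21 counts) and 1.00 with DC-depleted pIUT (55 counts). Both uninjected libraries were higher than every IUT library. Recipient uninjected cells, with 23 counts of Gzma, had 904 of Gzmk.

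Prf1 (ENSMUSG00000037202) was highest in maternal cells of uninjected pups at 244 CPM, was 44.8 with DC control mIUT, and had 0 counts in both maternal pIUT libraries. In recipient cells it had 1 count in uninjected pups and stood at 3.21 CPM with DC control mIUT, 10.8 with DC control pIUT and 8.77 with DC-depleted pIUT. In both maternal pIUT libraries Gzma was therefore present with no detectable Prf1. Counts of Gzmb per count of Prf1 were 0.743 [0.720 to 0.766] in maternal uninjected cells and 14.5 [13.8 to 15.2] in maternal DC control mIUT. In recipient cells the same ratio was 2.77 [2.18 to 3.56] with DC control mIUT, 15.2 [13.9 to 16.7] with DC control pIUT and 24.2 [22.1 to 26.6] with DC-depleted pIUT. These are ratios of counts, and the Prf1 transcript (2542 bases) is longer than that of Gzmb (1436 bases) in every library alike.

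Nkg7 (ENSMUSG00000004612), which takes part in granule release, stood at 468 CPM in maternal uninjected cells, 120 with DC control mIUT, 4.72 with DC control pIUT and 17.3 with DC-depleted pIUT. In recipient cells it was 135 CPM in uninjected pups, 19.9 with DC control mIUT, 135 with DC control pIUT and 224 with DC-depleted pIUT. Nkg7 was thus well expressed in recipient uninjected cells, where Gzma, Gzmb and Prf1 were at or near their lowest. Per kilobase of transcript, Gzma was the highest of the 10 in 6 of the 8 libraries, Gzmb in maternal DC control mIUT (451 CPM per kb) and Nkg7 in recipient uninjected cells (154 CPM per kb).

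**Figure D3:**
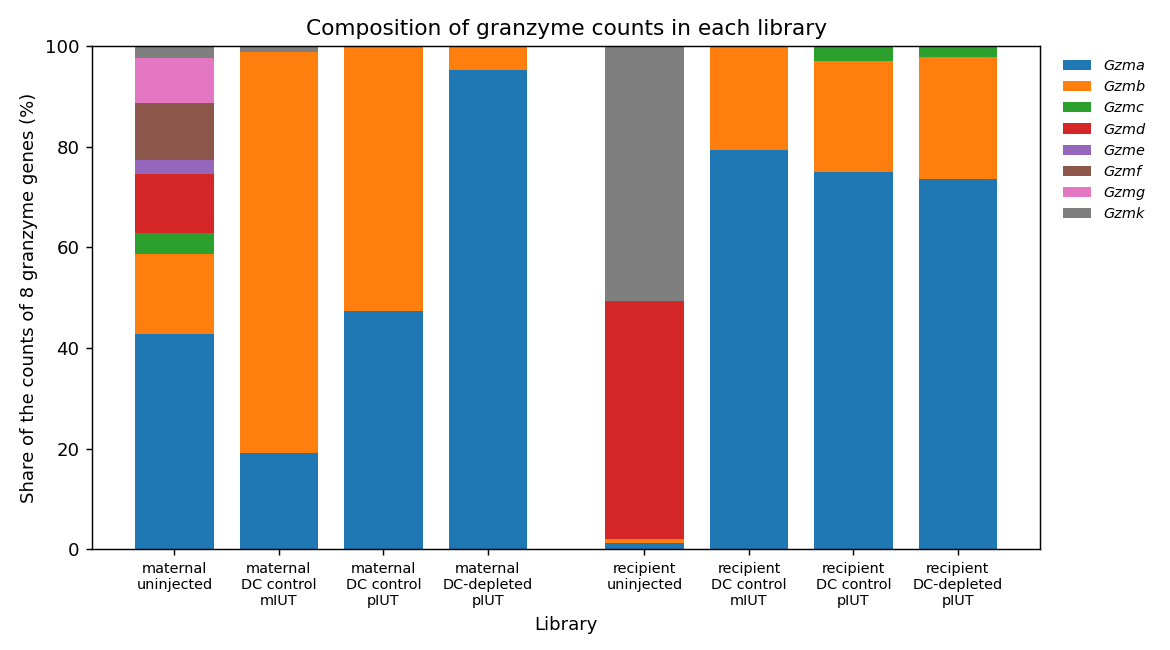
Share of each gene (%) in the counts of the 8 granzyme genes, 1 bar a library. Gzmb makes up 79.6% of the bar of maternal DC control mIUT and Gzma 95.1% of that of maternal DC-depleted pIUT, while Gzmk and Gzmd make up nearly all of that of recipient uninjected cells.

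The make-up of the granzyme counts was therefore unlike in most libraries. Maternal uninjected cells held all 8 granzymes, with Gzma at 42.8% of 44460 counts. In maternal DC control mIUT, Gzmb made up 79.6% of 31519 counts. Maternal DC control pIUT was divided between Gzma (47.4%) and Gzmb (52.6%), and maternal DC-depleted pIUT held 95.1% Gzma among 2879 counts. Recipient uninjected cells held 50.8% Gzmk and 47.2% Gzmd among 1781 counts. The 3 recipient IUT libraries resembled each other, with Gzma at 79.4% with DC control mIUT, 75% with DC control pIUT and 73.6% with DC-depleted pIUT.

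The first question of the design is what transplantation changed against uninjected pups, and the 3 comparisons within an origin share 1 uninjected library. A gene was counted as higher or lower when its CPM ratio was 4-fold or more and 1 of both libraries had at least 20 counts. In maternal cells, DC control mIUT held 6 of the 10 genes lower and 0 higher than uninjected pups. Over all 13743 genes tested, 36.4% were lower and 18.2% higher. Gzmc, Gzmd, Gzme, Gzmf and Gzmg, at 0 in this library, were at least 383-fold lower, and Gzmd at least 1733-fold. Prf1 was 5.44-fold lower [5.17 to 5.73], while Gzmb was 3.58-fold higher [3.48 to 3.67], inside the 4-fold limit. The median log2 ratio of the 10 genes was at most -5.51, since 5 of the ratios are bounds, beside -0.53 over all genes. With Gzmc, the gene with which Gzmb shared reads, added to it, the ratio was 2.82 in place of 3.58. With all 7 chromosome 14 granzymes summed it was 1.03, since the sum takes in the other 5 genes, at 0 with DC control mIUT.

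Maternal DC control pIUT held 8 of the 10 genes lower and 0 higher, against 22.5% and 24.9% of 15025 genes. Prf1 was at least 4113-fold lower, Gzmk at least 461-fold and Nkg7 99.1-fold [87.2 to 113]. Gzma was 3.53-fold lower [3.44 to 3.63] and Gzmb 1.18-fold lower [1.14 to 1.22], and these 2 were the only ones within 4-fold. In maternal DC-depleted pIUT all 10 genes were lower, where 27.2% of 14457 genes were lower and 22.1% higher. Gzma was 5.89-fold lower [5.66 to 6.13], Gzmb 42.7-fold [36.2 to 50.9] and Nkg7 27.1-fold [24.9 to 29.5], and Prf1 was at least 2685-fold lower. In each of these 2 comparisons 7 of the 10 ratios are bounds, set by 3 counts and the library size. The medians of the 10 log2 ratios are therefore limits too, at most -9.33 with DC control pIUT and at most -8.71 with DC-depleted pIUT, with all-gene medians of 0.09 and -0.09. Gzmb alone had log2 ratios of -0.24 and -5.42, Gzmb with Gzmc -0.58 and -5.76, and the 7 summed chromosome 14 granzymes -2.03 and -7.21.

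In recipient cells the arrangement was mixed. DC control mIUT held 3 of the 10 genes higher and 3 lower than uninjected pups, where 42.5% of 13375 genes were higher and 19.0% lower. Gzma was 72-fold higher [47.7 to 114] and Gzmb 30.7-fold [18 to 57], and Prf1 was at least 51.7-fold higher. Gzmd was at least 166-fold lower, Gzmk at least 179-fold and Nkg7 6.79-fold [6.23 to 7.41]. The remaining 4, Gzmc, Gzme, Gzmf and Gzmg, were at 0 in both libraries and gave no ratio.

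In recipient DC control pIUT, 4 genes were higher and 2 lower than in uninjected pups, against 44.3% and 14% of 14437 genes. The shares cover genes with at least 20 counts, which 7 of the 10 had here and with DC-depleted pIUT. Gzma was 1185-fold higher [790 to 1870], Gzmb 571-fold [340 to 1045], Gzmc at least 363-fold and Prf1 at least 175-fold. Gzmd was at least 261-fold lower and Gzmk 40.2-fold [26.1 to 65.3], and Nkg7 had a ratio of 0.999 [0.964 to 1.03]. The all-gene median log2 ratio was 1.09 in this comparison, so Nkg7 lay below the median gene. That median was 0.93 with DC control mIUT and 1.37 with DC-depleted pIUT. Recipient DC-depleted pIUT gave the same counts, 4 higher and 2 lower, beside 47.4% and 11.6% of 15389 genes. There Gzma was 1364-fold higher, Gzmb 734-fold [437 to 1343] and Nkg7 1.66-fold [1.61 to 1.71], while Gzmk was 18.6-fold lower [14.2 to 24.9]. All 3 recipient comparisons rest on the uninjected library in which 9.51% of commonly expressed genes were under 1 CPM, and its part in these ratios was not tested. With the 7 chromosome 14 granzymes summed, the ratios to uninjected pups were 0.504 with DC control mIUT, 10.6 with DC control pIUT and 13.1 with DC-depleted pIUT, far from those of Gzmb alone because Gzmd held 840 of the 854 uninjected counts. The ratios between recipient IUT libraries, given further on, do not use it.

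**Figure D4:**
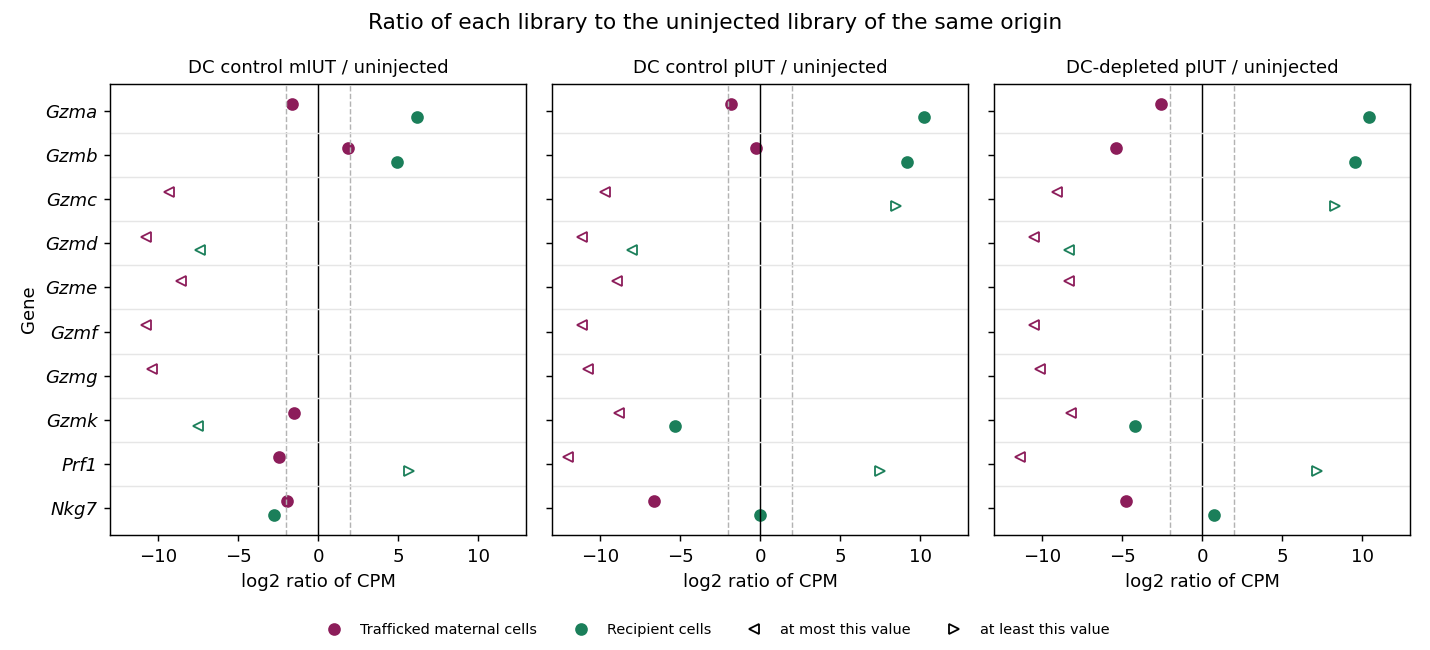
log2 ratio of each IUT library to the uninjected library of the same origin, 1 panel a treatment. Circles are values, triangles are bounds against 3 counts, and dashed lines mark 4-fold. Maternal points lie to the left of 0 except Gzmb in DC control mIUT, and recipient points of Gzma, Gzmb, Gzmc and Prf1 lie to the right.

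The second question is what depletion of maternal DC changed within pIUT, where both groups had BALB/c donors. In maternal cells DC depletion came with 1 of the 10 genes lower than with DC control pIUT and 0 higher, beside 30.0% and 22.4% of 14725 genes. That gene was Gzmb, 36.2-fold lower [30.6 to 43.1], from 7767 counts to 140. Gzma was 1.67-fold lower [1.60 to 1.74], and Nkg7 was 3.66-fold higher [3.14 to 4.27]. The other 7 genes were at 0 in both libraries. Summed neutrophil markers went from 1522 to 10885 CPM in this contrast and T cell markers from 141 to 429 CPM. NK cell markers went the other way, from 42.4 to 4.78 CPM. Their part in these ratios was not tested.

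In recipient cells 0 of the 10 genes passed 4-fold in either direction, where 13.9% of 15643 genes were higher and 5.89% lower. Gzma was 1.15-fold higher in DC-depleted pIUT [1.13 to 1.17], Gzmb 1.29-fold [1.25 to 1.32], Nkg7 1.66-fold [1.61 to 1.71] and Gzmk 2.16-fold [1.28 to 3.76]. Gzmc was 1.18-fold lower [1.08 to 1.29] and Prf1 1.24-fold lower [1.09 to 1.41]. These 2 libraries, each with no commonly expressed gene under 1 CPM, thus gave the 6 detectable granule genes at levels within 2.16-fold of each other.

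The third question is what the donor changed among DC controls. In maternal cells, 4 genes were lower with pIUT than with mIUT and 0 were higher, against 19.2% and 37.8% of 14117 genes. Of the 10 genes, 5 had at least 20 counts there. Gzmb was 4.22-fold lower [4.11 to 4.33], Nkg7 25.3-fold [22.2 to 29.0], Gzmk at least 164-fold and Prf1 at least 756-fold, and Gzma was 1.13-fold lower [1.09 to 1.17]. Gzmb lay close to the limit, and with DESeq2 size factors or scaling by the total its log2 ratio of -2.08 became -1.93 or -1.52, which leaves 3 genes lower. Recipient cells went in the other direction, with 5 genes higher with pIUT and 0 lower, beside 21.7% and 12.7% of 14498 genes. Of the 10 genes, 6 had at least 20 counts there. Gzma was 16.5-fold higher [15.4 to 17.6], Gzmb 18.6-fold [16.4 to 21.2], Nkg7 6.78-fold [6.22 to 7.40], Gzmc at least 215-fold and Gzmk at least 4.44-fold. The Gzmk ratio rests on 21 counts against 0, and with a floor of 10 counts its log2 ratio went from 2.15 to 0.42, which leaves 4 genes higher. Prf1 was 3.38-fold higher [2.70 to 4.27].

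The fourth comparison sets maternal against recipient cells under the same treatment. In uninjected pups 8 genes were higher in maternal cells and 0 lower, beside 40.2% and 15.6% of 13341 genes. Gzma was 1027-fold higher [685 to 1621], Gzmb 626-fold [373 to 1145] and Prf1 at least 3932-fold, while Gzmk was 1.46-fold higher [1.34 to 1.60]. The recipient library here is the one with 9.51% of commonly expressed genes under 1 CPM, whose part in these ratios was not tested. The summed chromosome 14 granzymes gave 35.5-fold in place of the 626-fold of Gzmb, again with Gzmd as most of the recipient sum. In DC control mIUT all 5 detectable genes were higher in maternal cells and 0 lower, where 14.3% of 13308 genes were higher and 33.0% lower. Gzmb differed 72.9-fold [64.4 to 82.8], Prf1 14-fold [11.3 to 17.4], Nkg7 6.00-fold [5.50 to 6.56] and Gzma 4.56-fold [4.26 to 4.88].

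With pIUT the order of the origins turned. In DC control pIUT 5 genes were lower in maternal than in recipient cells and 0 higher, against 23.3% and 19.8% of 15445 genes. Of the 10 genes, 6 had at least 20 counts there. Nkg7 was 28.6-fold lower [25.2 to 32.7], Gzma 4.07-fold [3.97 to 4.18] and Prf1 at least 183-fold, while Gzmb was 1.08-fold lower [1.04 to 1.11]. The call of Gzma was lost with DESeq2 size factors or scaling by the total, and that of Gzmk, on 21 counts against 0, with a floor of 10 counts. In DC-depleted pIUT 6 genes were lower in maternal cells and 0 higher, beside 31.2% and 8.57% of 15501 genes. These 6 were all that had at least 20 counts. The call of Gzmk there, on 55 counts against 0, was lost with a floor of 10 counts. Gzmb was 50.1-fold lower there [42.4 to 59.6], Nkg7 13-fold [11.9 to 14.1], Gzma 7.82-fold [7.52 to 8.13] and Prf1 at least 96.6-fold.

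Markers of the cells that carry cytotoxic granules varied with the granule genes. The summed level of 10 NK cell markers in maternal cells was 624 CPM in uninjected pups, 95.8 with DC control mIUT, 42.4 with DC control pIUT and 4.78 with DC-depleted pIUT. Recipient cells held 55.7 CPM of them in uninjected pups, 12.6 with DC control mIUT, 211 with DC control pIUT and 269 with DC-depleted pIUT. The sums had the order of the summed granule genes within each origin, but not every marker did. From maternal mIUT to pIUT of DC controls the sum was lower through Klrk1 and Il2rb, while of the 4 markers with at least 20 counts 2 (Klre1 and Klrd1) were 4-fold or more higher and 0 lower, with a median log2 ratio of at least 1.83. Over all genes 37.8% were higher and 19.2% lower in that comparison. All 10 markers were above 3 counts in maternal uninjected cells, and 2, 4 and 4 in the maternal mIUT, pIUT and DC-depleted pIUT libraries. In recipient cells 3 were in uninjected pups, 5 with DC control mIUT, 9 with DC control pIUT and 8 with DC-depleted pIUT. Ncr1, a receptor carried by NK cells but not by them alone, had 2256 counts in maternal uninjected cells and 0 in the 3 maternal IUT libraries. In recipient cells Ncr1 had 0, 25, 2184 and 3606 counts in uninjected, DC control mIUT, DC control pIUT and DC-depleted pIUT pups. Maternal DC control mIUT, with the highest Gzmb of all libraries, had 0 counts of Ncr1 and Klrb1c, 2326 of Klrk1 and 1384 of Il2rb.

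T cell markers followed less closely. Of the 10 genes in this list only Cd8a and Cd8b1 separate CD8 from other T cells, and the sum is led by Lck, Cd3d, Cd3g and Cd3e, which all T cells carry. The summed level in maternal cells was 2063 CPM in uninjected pups, 441 with DC control mIUT, 141 with DC control pIUT and 429 with DC-depleted pIUT. In recipient cells the sum was 521, 715, 4072 and 958 CPM in the same order. Cd8a and Cd8b1 together gave 228, 42.1, 35.1 and 51.1 CPM in maternal and 107, 87.2, 494 and 57.9 CPM in recipient cells. Cd8a stood at 268 CPM in recipient DC control pIUT and at 31.3 CPM in recipient DC-depleted pIUT, where Gzma, Gzmb, Nkg7 and Gzmk were somewhat higher and Prf1 and Gzmc somewhat lower. Reads assigned to T cell receptor clonotypes numbered 41052 and 9906 in these 2 libraries. In maternal cells they numbered 23200 in uninjected pups, 3799 with DC control mIUT, 1754 with DC control pIUT and 4622 with DC-depleted pIUT. Across the 8 libraries, which share depth and pooling, Pearson's r of log2 CPM with the summed NK markers was 0.795 for Nkg7, 0.750 for Prf1, 0.640 for Gzmb and 0.498 for Gzma. With the T cell sum the same values were 0.720, 0.596, 0.196 and 0.408, and with Cd8a and Cd8b1 alone they were 0.550, 0.411, 0.022 and 0.185. B cell markers, which do not belong to killer cells, gave 0.849 for Nkg7 and 0.675 for Prf1, but 0.132 for Gzmb and -0.02 for Gzma. Their r was 0.913 for Gzmk and 0.889 for Gzmd, against 0.551 and 0.483 with the NK markers. The summed B cell markers in maternal cells were 7284 CPM in uninjected pups, 327 with DC control mIUT, 49.7 with DC control pIUT and 32.5 with DC-depleted pIUT, the same order of treatments as for the granule genes. Recipient B cell sums were 1327 CPM in uninjected pups, 72.5 with DC control mIUT, 221 with DC control pIUT and 274 with DC-depleted pIUT. Their part in the levels of the granule genes was not tested.

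Mast cells, basophils and neutrophils hold proteases of the same chromosome 14 locus and were also present. The summed level of 10 mast cell and basophil markers ran from 58.9 CPM in maternal DC control pIUT to 1429 CPM in recipient DC-depleted pIUT. Mcpt8, a basophil protease, had 5167 counts in recipient DC control pIUT and 9612 in recipient DC-depleted pIUT, and 840 in maternal uninjected cells. Cpa3, a mast cell peptidase, had 3543 and 18924 counts in those recipient libraries and 3246 in maternal uninjected cells. Ctsg, the neutrophil protease next to Gzme, had 8190 counts in maternal DC control mIUT, 8011 in recipient uninjected cells and 30842 in recipient DC-depleted pIUT, but 68 in maternal uninjected cells where Gzme was highest. In maternal DC control pIUT all 8 proteases of the chymase end of the locus were at 0 while Gzmb had 7767 counts. Which cells the granzyme transcripts came from was not tested.

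**Figure D5:**
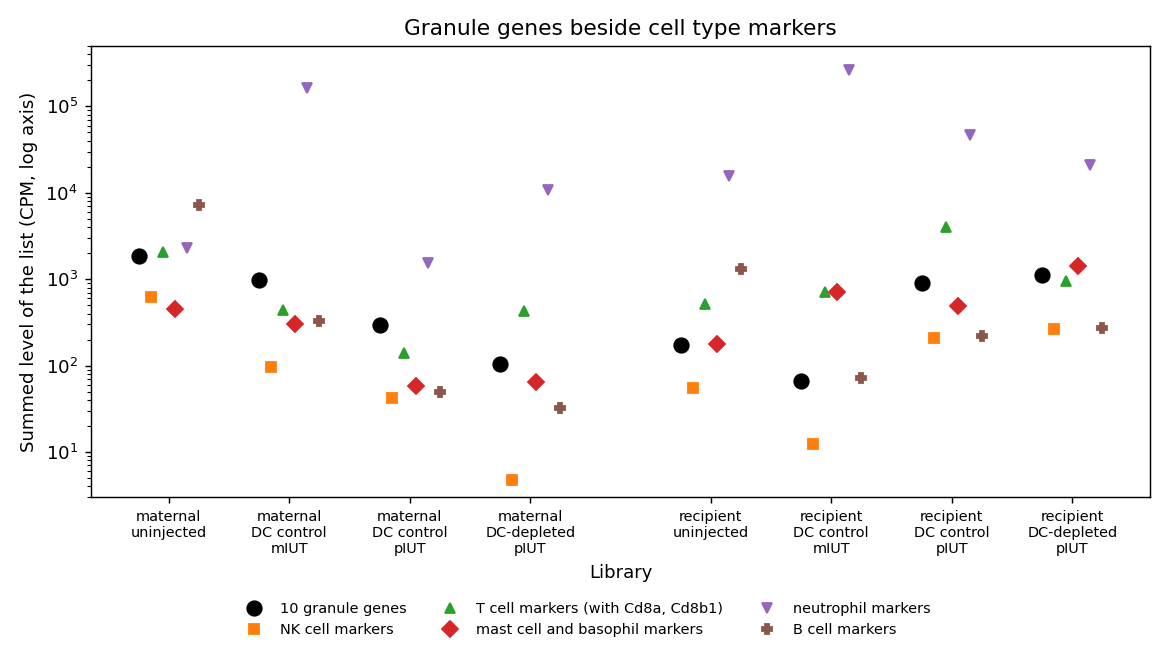
Summed level (CPM, log axis) of the 10 granule genes and of 5 lists of cell type markers in each library. The sums of the granule genes and of the NK cell markers take the same order within each origin, though single NK markers do not in the maternal mIUT and pIUT libraries, while neutrophil markers peak in the DC control mIUT libraries, at 162291 CPM in maternal and 262839 CPM in recipient cells.

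Genes whose levels across the 8 libraries were most like those of a granule gene were named by Pearson's r of log2(CPM + 1) among 12045 genes, as a description. For Gzmd these were 5 immunoglobulin variable segments, led by Iglv2 (r 0.998) and ending with Igkv4-61 (0.992). In uninjected pups Iglv2 stood at 125 CPM in maternal and at 19.4 CPM in recipient cells, against 0.376 CPM or less in the other 6 libraries, and B cell markers were highest in the same pair. For Prf1 they were Ryr1 (0.973), Siglecg (0.972), Igkv8-21 (0.967), Blk (0.954) and Pkp3 (0.950), of which Siglecg and Blk are B cell genes. Blk stood at 186 CPM in maternal uninjected cells and at 0 in both maternal pIUT libraries and in recipient uninjected cells. For Gzma they were Ap1g2 (0.961), Isyna1 (0.960), Raver1 (0.955), Nipsnap1 (0.955) and Mmut (0.953). Mmut, a mitochondrial enzyme found in most cells, ran from 16.3 to 55.9 CPM in 7 libraries and was at 0 in recipient uninjected cells, the library in which Gzma was lowest.

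The other genes of the cytotoxic pathway differed from the granule genes in how widely they were present. All 10 genes of granule maturation were detected in all 8 libraries. Srgn, which encodes serglycin, ran from 259 CPM in maternal DC control pIUT to 1311 CPM in recipient DC control mIUT. Ctsc, the activating cathepsin C, was 494 CPM in maternal uninjected cells and 66.8 to 111 CPM in the maternal IUT libraries. In recipient cells Ctsc was 296 CPM in uninjected pups, 74.8 with DC control mIUT, 186 with DC control pIUT and 578 with DC-depleted pIUT. Against uninjected pups, 3, 6 and 6 of these 10 genes were lower in maternal DC control mIUT, DC control pIUT and DC-depleted pIUT, and 2, 0 and 1 were higher. Over all genes 36.4%, 22.5% and 27.2% were lower and 18.2%, 24.9% and 22.1% higher in these 3 comparisons, so 3 of 10 with DC control mIUT was near the background. For genes of granule release, such as Vamp8 and Stxbp2, 1, 2 and 2 of 10 were lower in the same comparisons and 1, 0 and 0 higher, below the all-gene shares or near them, with 9 of the 10 above the count minimum. Vamp8 ran from 157 to 529 CPM over the 8 libraries.

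Regulators of the cytotoxic program varied from gene to gene. Of 10 transcription factors, 6, 4 and 7 were lower in maternal DC control mIUT, DC control pIUT and DC-depleted pIUT than in uninjected pups, and 1, 0 and 0 were higher, where the all-gene shares lower were 36.4%, 22.5% and 27.2% and 9 of the 10 had at least 20 counts. The all-gene shares higher were 18.2%, 24.9% and 22.1%. Their summed level in maternal cells was nevertheless higher with DC control mIUT, at 1001 CPM, than in uninjected pups, at 466 CPM. Id2, a regulator found in many cell types, made most of that sum, at 751 CPM with DC control mIUT and 160 CPM in uninjected pups, while the median log2 ratio of the list was at most -6.22. Tbx21, which encodes T-bet, had 803 counts in maternal uninjected cells, 393 with DC control pIUT and 0 in the other 2 maternal libraries. In recipient cells Tbx21 had 331 counts in DC control pIUT, 878 with DC-depleted pIUT and 0 in the other 2. Eomes had 224 counts in maternal uninjected cells, 30 and 107 in the recipient pIUT libraries and 0 in the remaining 5. Maternal DC control mIUT had 25096 counts of Gzmb with 0 counts of Tbx21, Eomes, Runx3 and Stat4.

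Among 9 further effector genes of killer cells, 3, 3 and 7 were lower in the same 3 maternal comparisons and 1, 2 and 1 were higher. Of these 9 genes, 7, 7 and 8 had the 20 counts that the all-gene shares ask for. Those shares were 36.4%, 22.5% and 27.2% lower and 18.2%, 24.9% and 22.1% higher. The 3 of 7 lower with DC control mIUT were thus near the background. In recipient cells 2, 4 and 5 of the 9 were higher and 3, 0 and 1 lower than in uninjected pups, where 42.5%, 44.3% and 47.4% of all genes were higher. Ifng had 695 counts in maternal uninjected cells, 1147 with DC control mIUT, 363 with DC control pIUT and 0 with DC-depleted pIUT. In recipient cells Ifng had 684 counts in DC control pIUT and 507 with DC-depleted pIUT, and 0 in the other 2 libraries. The chemokine Ccl5, stored with the granules, was 314 CPM in maternal uninjected cells and 28.5 CPM or less in the other 7 libraries. Ccl3, in contrast, was highest in maternal DC control pIUT at 728 CPM. Serpinb9, the inhibitor of granzyme B, had its highest level in the library with the highest Gzmb, maternal DC control mIUT (58.2 CPM). It stood at 19.97 CPM in maternal uninjected cells, 18.9 and 31.7 CPM in recipient DC control and DC-depleted pIUT, and at 0 in maternal DC control pIUT, where Gzmb was 154 CPM.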

How the data were processed

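Trafficked maternal and recipient cells of each group were pooled across animals by the authors, sorted, and sequenced as 1 library each, so there were no replicates, and no p-value was computed within a treatment. The authors deposited estimated counts per gene, which are not normalized. They ran the nf-core RNA-seq pipeline on GRCm39 with GENCODE annotation. The deposited table is named for salmon, while the study's methods name featureCounts. bcl2fastq and StringTie are named in the submitters' processing notes, with no version. The fractional values, 8.64% of the table, show that reads matching several genes were divided. The authors also deposited MiXCR tables, whose clone counts are reads per clonotype, and the clone counts of T cell receptor chains were summed per library. The authors' clone fractions were not used.

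Estimated counts were rounded. TMM in edgeR 4.0.16 (R 4.3.3) was run on 25066 of 52784 genes, leaving out those at 0 throughout, and CPM was the count per 1000000 of the scaled library size. Total counts were 38543457 to 47965130 a library. Ratios used a set floor of 3 counts and are bounds there. Levels carry exact Poisson and ratios exact conditional binomial (Clopper-Pearson) 95% intervals, for counting error only. The alternatives were DESeq2 1.42.0 size factors, scaling by the total, TMM on genes with at least 10 counts in at least 2 libraries, edgeR's exact test log2 ratio at a dispersion of 0.4, a floor of 10 counts, folds of 2 and 8, a minimum of 50 counts, and the sum of 7 chromosome 14 granzymes. Added after seeing the data was edgeR's quasi-likelihood fit of origin, paired by treatment, over genes with at least 10 counts in at least 2 libraries. The ratio calculation was tested on simulated Poisson counts from a shared profile, with 200 well-counted genes changed 8-fold. That test did not cover bounds at the floor or libraries of unlike composition. The origin fit was also tested on simulated counts. Symbols, positions and sequences came from a later GENCODE annotation of GRCm39 than the authors', which matched 97.99% of the gene identifiers. Sequence identity was computed with Biopython 1.88 from global alignments, and shared windows over all annotated transcripts. Scripts ran in Python 3.11.15 with scipy 1.17.1, pandas 2.3.3, numpy 2.4.6 and, for plots, matplotlib 3.10.9.

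All 10 genes are named. Of every other list the 4 genes with the highest mean CPM could be named, and further members where their level was needed beside a result (Ncr1, Klrb1c, Klrk1, Klre1, Klrd1, Il2rb, Cd8a, Cd8b1, Ctsc, Tbx21, Eomes, Runx3, Ifng). Those were chosen after their values were seen. For Gzma, Gzmd and Prf1 the 5 most alike genes are named. Vamp7, of the release list, was not matched in the table. The genes and lists were chosen with earlier results of these data known.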

Additional observations from a re-analysis of the deposited data

Results flagged for a closer look

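Several granule genes lay 4-fold or more to one side in maternal cells and to the other side in recipient cells under the same contrast. Each origin gave 1 library a group, so these differences between origins were not tested. The values are log2 ratios of CPM, and those against a library at 3 counts or fewer are bounds. Over all genes tested in both origins, 15% were lower in maternal and higher in recipient cells with DC control mIUT, 10.5% with DC control pIUT and 11.5% with DC-depleted pIUT, against 1 of 6, 2 of 7 and 4 of 7 granule genes. In DC control mIUT against uninjected pups, Prf1 was at -2.44 in maternal and at least 5.69 in recipient cells. In DC control pIUT against uninjected pups, Gzmc was at most -9.68 in maternal and at least 8.50 in recipient cells, and Prf1 at most -12.01 and at least 7.45. In DC-depleted pIUT against uninjected pups, Gzma was at -2.56 in maternal and 10.41 in recipient cells, and Gzmb at -5.42 and 9.52. In the same contrast Gzmc was at most -9.07 and at least 8.26, and Prf1 at most -11.39 and at least 7.14. All of these recipient values use the uninjected library in which 9.51% of commonly expressed genes were under 1 CPM, and its part in them was not tested.

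In the contrast of pIUT with mIUT, which does not use that library, 3 of the 5 granule genes tested in both origins were lower in maternal and higher in recipient cells, as were 2.15% of 12013 genes. In pIUT against mIUT among DC controls, Gzmb was at -2.08 in maternal and 4.22 in recipient cells, Nkg7 at -4.66 and 2.76, and Gzmk at most -7.36 and at least 2.15. Of these, Nkg7 kept both 4-fold calls under every scaling, floor and count minimum tried. Gzmb in maternal cells went to -1.93 with DESeq2 size factors and -1.52 with total scaling, and Gzmk in recipient cells, on 21 counts against 0, to 0.42 with a floor of 10 counts. The summed NK cell markers were 95.8 CPM with mIUT and 42.4 CPM with pIUT in maternal cells, and 12.6 and 211 CPM in recipient cells. With pIUT in maternal cells 2 of the 4 NK markers with at least 20 counts were 4-fold or more higher and 0 lower. The all-gene shares there were 37.8% and 19.2%. In recipient cells 8 of 8 such markers were higher and 0 lower, beside 21.7% and 12.7% of all genes. Other cell type markers also differed in this contrast. Summed neutrophil markers went from 162291 to 1522 CPM in maternal and from 262839 to 47063 CPM in recipient cells, erythroid markers from 309 to 3786 and from 33.6 to 580.4 CPM, and T cell markers from 441 to 141 and from 715 to 4072 CPM. Their part in the result was not tested.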

How the results depend on the processing

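The counts of granule genes past 4-fold, in 14 comparisons and both directions, stayed within 1.5 times their value under DESeq2 size factors, scaling by the total count, TMM on filtered genes, edgeR's log2 ratio, a floor of 10 counts and a minimum of 50 counts. Within that range single calls were lost near the limit. DESeq2 size factors and total scaling lost Gzmb in maternal pIUT against mIUT (4 to 3 genes) and Gzma in maternal against recipient cells of DC control pIUT (5 to 4). A floor of 10 counts lost Gzmk in recipient pIUT against mIUT (5 to 4) and in maternal against recipient cells of both pIUT groups, and a minimum of 50 counts lost it in the 2 that set its 21 counts against 0. Total scaling added Nkg7, lower in maternal DC control mIUT, and Prf1, higher in recipient pIUT against mIUT. With a limit of 2-fold, 1 gene instead of 0 was higher for maternal DC control mIUT against uninjected pups (Gzmb), for maternal DC-depleted against DC control pIUT (Nkg7), and for recipient DC-depleted against DC control pIUT (Gzmk). With a limit of 8-fold, 3 genes instead of 5 were higher in recipient pIUT than mIUT, 3 instead of 5 higher in maternal than recipient cells of DC control mIUT, and 3 instead of 5 lower in maternal than recipient cells of DC control pIUT. When the 7 granzymes of chromosome 14 were summed, recipient DC control mIUT against uninjected pups gave -0.99 on the log2 scale in place of 4.94 for Gzmb alone, because Gzmd held 840 of the 854 counts of the sum in uninjected pups. The same sum moved maternal DC control mIUT from 1.84 to 0.05, maternal DC control pIUT from -0.24 to -2.03 and maternal DC-depleted pIUT from -5.42 to -7.21, recipient DC control pIUT from 9.16 to 3.41 and recipient DC-depleted pIUT from 9.52 to 3.71, all against uninjected pups, and maternal against recipient uninjected cells from 9.29 to 5.15. These shifts come from the genes added more than from shared reads. Gzmb with Gzmc alone, an alternative added after seeing the data, gave 1.495, -0.58, -5.76, 9.34, 9.64 and 9.63 in the same 6 comparisons. In the other 7 comparisons the sum of 7 and Gzmb alone had log2 ratios on the same side of 4-fold and of 0. Scaling by the total count moved the all-gene median from 0.19 to 0.90 in recipient pIUT against mIUT, the largest shift over the 14 comparisons. No gene past 4-fold changed direction under any scaling. Ratios near 1 did. Under total scaling Gzmb in maternal DC control pIUT against uninjected pups went from -0.24 to 0.11. Gzma in maternal pIUT against mIUT went from -0.17 to 0.39 under the same scaling. So did Nkg7 in recipient DC control pIUT against uninjected pups, from 0.00 to 0.16. Under DESeq2 size factors Gzmb in maternal against recipient cells of DC control pIUT went from -0.11 to 0.21. Each group had 1 library, so no replicate could be left out. Maternal and recipient cells could be paired by treatment, and that fit was added after seeing the data. edgeR's quasi-likelihood test of origin with treatment as a block, with 3 residual degrees of freedom, called 0 of 16886 genes at an adjusted p of 0.05 (307 at an unadjusted p of 0.05), and 0 of the 7 granule genes tested (0 unadjusted). Without the block it called 0 genes (771 unadjusted) and again 0 of the 7. The treatments are not replicates of an origin, and the ratios of Gzma, Gzmb, Gzmc, Gzmk, Prf1 and Nkg7 between origins turned between them. The bounds depend on the floor, and a gene at 0 in 1 pooled library is not shown to be absent from the cells.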
